A study of Homo sapiens with 6 samples.

Results

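Marker genes of glioma stem cells and of neural lineages were followed in LN229 cells, an established human glioblastoma line. The set held 10 genes, CD44, NES, PROM1, OLIG2, GFAP, CHI3L1, S100B, FABP7, TUBB3 and MSI1, named by symbol and looked up among the 58735 genes of the deposited count table, where each matched 1 row. The 3 HSD52_OE libraries came from LN229 cells overexpressing HSD52, a non-coding RNA gene, and the 3 control libraries came from LN229 cells given as WT. Each library was poly-A-selected RNA sequenced on an Illumina instrument. The labels name neither a vector, a clone nor separate cultures, so p-values reflect only how far these 6 libraries scatter, possibly for technical reasons, and they apply to a single cell line. The question was which of these markers differ when HSD52 is overexpressed.

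Glioblastoma cells carry programmes borrowed from neural development. Nestin, the product of NES, is an intermediate filament of neural progenitors. FABP7 is the fatty acid binding protein of radial glia, PROM1 encodes the surface protein CD133 used to sort tumour-initiating cells, and MSI1 encodes an RNA-binding protein of neural stem cells. CD44, the hyaluronan receptor, and CHI3L1, a secreted chitinase-like protein also known as YKL-40, mark the mesenchymal state of the tumour. OLIG2 is the transcription factor of oligodendrocyte precursors, GFAP the intermediate filament of astrocytes, S100B a calcium-binding protein of astrocytes and other glia, and TUBB3 the class III beta-tubulin of neurons.

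In outline, the neuronal tubulin gene TUBB3, the astrocyte filament gene GFAP and the radial glia gene FABP7 rose in HSD52_OE cells, to 1.75, 1.50 and 1.24 times the control level. The glial gene S100B and the hyaluronan receptor gene CD44 fell, to 0.741 and 0.812 times that level. TUBB3 and S100B kept their calls in all 14 alternative analyses. FABP7 lost its call in 5 of them, CD44 in 4 and GFAP in 3. NES and OLIG2 did not pass the test. PROM1, MSI1 and CHI3L1 were at or near 0 counts in both groups and were not tested.

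These counts stand against a wide change of the whole transcriptome. In edgeR, 16322 genes were compared by quasi-likelihood with p-values adjusted over all of them after Benjamini and Hochberg, and 50.6% passed a threshold of 0.05, 25% higher and 25.6% lower in HSD52_OE cells. Of the 10 markers 7 passed the low-count filter, and 5 of these passed the test, 3 higher and 2 lower, and nothing particular to the markers is read from counts this small against that background. Their median log2 fold change was 0.12, against 0.0072 for all genes tested. Scaled by library totals alone, where the median over all genes became 0.13, the calls were 5337 higher and 2933 lower, against 4086 and 4173 with composition scaling. Total counts per library ran from 17777157 to 18917790. HSD52 itself had 1252, 1336 and 1327 counts in HSD52_OE libraries and 11, 7 and 12 counts in control libraries. HSD52_OE libraries held counts in more genes, 26561, 26755 and 26359, against 22855, 23545 and 23096 in control libraries (exact 2-sided permutation p = 0.1, the smallest that 3 against 3 libraries allow). Among protein-coding genes with a mean under 10 CPM (counts per 1000000 counted reads, scaled by TMM factors), 30.1% rose and 16.9% fell. Among those at 100 CPM or more, 13.7% rose and 41.3% fell.

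The promoters of 4 markers are shown because they span the results: FABP7 and TUBB3 rose, CD44 fell and CHI3L1 had no counts. Each window runs from 250 bases before to 50 bases after a RefSeq gene start (GRCh38.p14), 5′ to 3′ on the strand of the gene. RefSeq windows matched 6 of the 10 markers, with none for MSI1, OLIG2, GFAP and S100B. Capitals mark matches on either strand to the CCAAT box (CCAAT), the GC box (GGGCGG), the TATA box (TATAAA) and the AP-1 site (TGANTCA). No match of these motifs overlaps a match of another in the windows shown.
FABP7, chr6:122779466-122779765, plus strand: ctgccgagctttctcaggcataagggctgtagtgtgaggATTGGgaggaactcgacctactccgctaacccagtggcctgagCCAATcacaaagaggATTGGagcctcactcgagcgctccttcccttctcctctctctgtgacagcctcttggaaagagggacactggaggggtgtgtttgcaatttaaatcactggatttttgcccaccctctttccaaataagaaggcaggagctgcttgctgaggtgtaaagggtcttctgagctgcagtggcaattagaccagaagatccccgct
TUBB3, first start, chr16:89921675-89921974, plus strand: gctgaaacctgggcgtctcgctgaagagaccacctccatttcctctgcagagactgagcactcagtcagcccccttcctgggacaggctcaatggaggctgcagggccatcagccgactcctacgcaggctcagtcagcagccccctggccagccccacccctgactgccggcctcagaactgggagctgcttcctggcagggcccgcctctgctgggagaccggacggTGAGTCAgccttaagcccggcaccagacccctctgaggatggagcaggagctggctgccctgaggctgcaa
TUBB3, second start, chr16:89923092-89923391, plus strand: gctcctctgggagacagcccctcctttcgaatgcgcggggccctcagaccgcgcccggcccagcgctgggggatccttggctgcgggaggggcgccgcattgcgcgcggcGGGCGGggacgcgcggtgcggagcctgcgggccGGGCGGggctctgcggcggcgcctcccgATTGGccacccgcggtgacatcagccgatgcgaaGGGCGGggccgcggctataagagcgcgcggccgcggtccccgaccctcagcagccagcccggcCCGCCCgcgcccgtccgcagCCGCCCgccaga
CD44, chr11:35138921-35139220, plus strand: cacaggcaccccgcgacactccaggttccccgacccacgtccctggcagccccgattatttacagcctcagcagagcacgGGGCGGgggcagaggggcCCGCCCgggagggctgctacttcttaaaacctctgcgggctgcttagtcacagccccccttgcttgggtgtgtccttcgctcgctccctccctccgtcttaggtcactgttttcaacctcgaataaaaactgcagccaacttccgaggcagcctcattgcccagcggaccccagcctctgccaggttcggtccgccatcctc
CHI3L1, chr1:203186655-203186954, minus strand: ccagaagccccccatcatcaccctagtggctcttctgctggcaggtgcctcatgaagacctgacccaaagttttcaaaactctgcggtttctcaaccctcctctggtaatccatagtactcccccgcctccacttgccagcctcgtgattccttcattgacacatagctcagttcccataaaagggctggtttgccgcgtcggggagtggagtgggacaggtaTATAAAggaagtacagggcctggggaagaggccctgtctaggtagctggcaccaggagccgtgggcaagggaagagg

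The windows differed in make-up. FABP7 held 3 CCAAT boxes and none of the other motifs, and its window was 52.7% G or C. The second TUBB3 window held 5 GC boxes and 1 CCAAT box and was 79.0% G or C, while the first held a single AP-1 site. CD44 held 2 GC boxes, and CHI3L1 held a TATA box 27 bases before its start. Over 34943 windows of this length the CCAAT box was found in 34.6%, the GC box in 44.9%, the TATA box in 11.6% and the AP-1 site in 7.72%. The matches describe letters and no binding was measured.

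Among the progenitor markers, NES (ENSG00000132688, chr1:156668763-156677397, minus strand) was the most abundant of the 10 by counts. Coordinates of genes are those of the deposited table (hg38). It had 766, 745 and 764 CPM in HSD52_OE libraries and 809, 777 and 513 CPM in control libraries. Control replicate 3 stood low and the groups overlapped. The means were 758 ± 11.8 CPM in HSD52_OE and 699.7 ± 162 CPM in control (SD, n = 3 each), with a log2 fold change of 0.12 ± 0.13 (standard error, HSD52_OE over control; edgeR quasi-likelihood Benjamini-Hochberg adjusted p = 0.493). The 95% interval of the fold change ran from 0.889 to 1.32. Without control replicate 3 the log2 fold change was -0.071. In bulk RNA, fewer cells with a transcript and less of it per cell cannot be told apart, which holds for every value here.

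FABP7 (ENSG00000164434, chr6:122779475-122784074, plus strand) had 133, 139 and 147 CPM in HSD52_OE libraries and 103, 95.6 and 139.8 CPM in control libraries. Control replicate 3 lay within the range of the HSD52_OE libraries, so the groups overlapped. The means were 139.6 ± 7.23 CPM in HSD52_OE and 113 ± 23.5 CPM in control (SD, n = 3 each), a fold change of 1.24 with a 95% interval of 1.04 to 1.47 (edgeR quasi-likelihood Benjamini-Hochberg adjusted p = 0.0381). This call rests on all libraries but control replicate 3. The edgeR adjusted p was 0.0565, 0.0796 and 0.140 without HSD52_OE replicate 1, 2 and 3, 0.161 and 0.167 without control replicate 1 and 2, and 0.000178 without control replicate 3, where 14 alternatives gave 0.000178 to 0.167. The log2 fold change was 0.31 ± 0.12 with all libraries, 0.19 without control replicate 2 and 0.48 without control replicate 3.

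PROM1 and MSI1 were barely counted. PROM1 (ENSG00000007062, chr4:15963076-16084378, minus strand) had 1, 4 and 3 counts in HSD52_OE libraries and 1 count in each control library, a ratio of 2.66 with an exact 95% counting interval of 0.639 to 15.6. MSI1 (ENSG00000135097, chr12:120341330-120369180, minus strand) had 4, 7 and 6 counts in HSD52_OE libraries and 9, 5 and 5 in control libraries, a ratio of 0.893 with an interval of 0.436 to 1.82. These ratios are scaled by library totals and not by TMM factors, and their intervals cover counting error only. Both intervals include a ratio of 1, and differences within them were not detectable at this depth. The PROM1 exons share 166 bases, 2.23% of their length, with FGFBP2.

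Of the mesenchymal pair, CD44 was abundant and CHI3L1 was not seen. CD44 (ENSG00000026508, chr11:35138870-35232402, plus strand) had 371, 373 and 354 CPM in HSD52_OE libraries and 512, 410.3 and 430.2 CPM in control libraries. All HSD52_OE libraries were lower than all control libraries, and control replicate 1 stood above the others. The means were 366 ± 10.1 CPM in HSD52_OE and 451 ± 54.2 CPM in control (SD, n = 3 each), a fold change of 0.812 with a 95% interval of 0.703 to 0.936 (edgeR quasi-likelihood Benjamini-Hochberg adjusted p = 0.0171). The edgeR adjusted p was 0.0573, 0.0605 and 0.0809 without HSD52_OE replicate 1, 2 and 3. It was 0.126 when scaled by library totals alone, where the log2 fold change was -0.18 against -0.30, and 14 alternatives gave 0.00164 to 0.126. CD44 shares 84 exon bases, 0.840% of its length, with CD44-AS1 on the opposite strand, which had 11, 15 and 10 counts in HSD52_OE libraries and 1, 8 and 2 in control libraries. CHI3L1 (ENSG00000133048, chr1:203178931-203186749, minus strand) had 0 counts in all 6 libraries. This allows up to 0.159 to 0.169 CPM per library at 3 counts, here by library totals without TMM factors.

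The plot of levels by library places the 10 markers on a common scale, from NES near the top to CHI3L1 at 0.

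**Figure D1:**
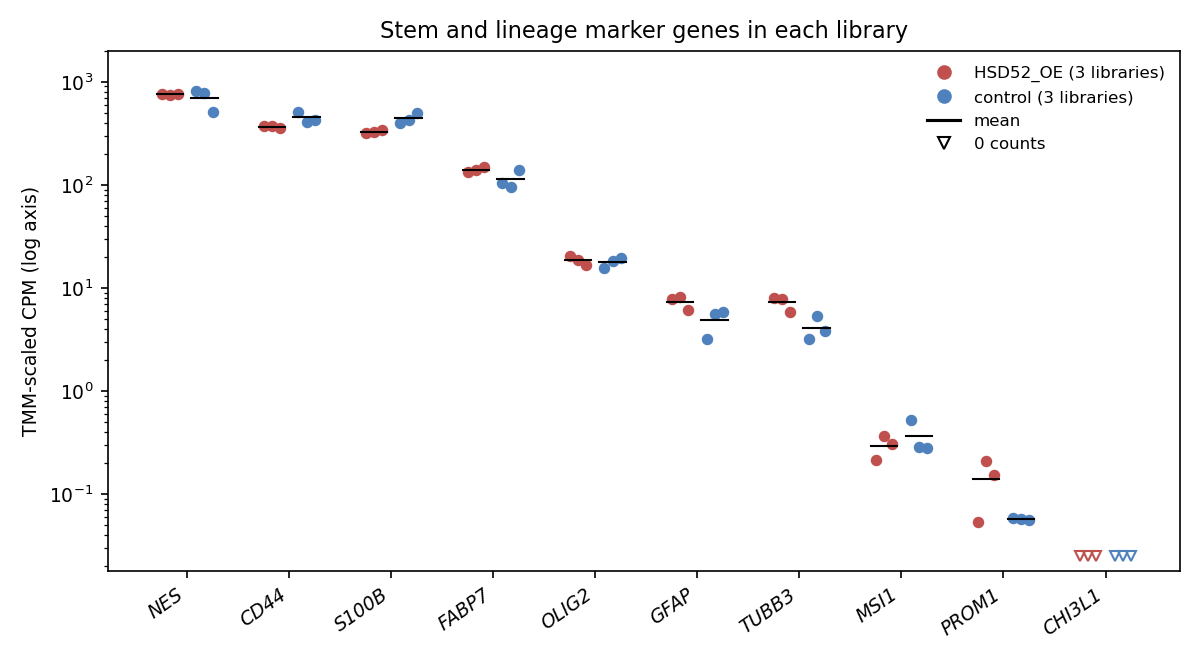
TMM-scaled CPM (log axis) of the 10 markers in each of the 3 HSD52_OE and 3 control libraries, with the group mean as a line and 0 counts as open triangles. TUBB3, GFAP, CD44 and S100B separated the groups, NES and FABP7 overlapped through control replicate 3, OLIG2 overlapped as well, and MSI1, PROM1 and CHI3L1 lay under 1 CPM.

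Among the lineage markers, S100B (ENSG00000160307, chr21:46598962-46605208, minus strand) fell with the smallest p of the set. It had 317, 326 and 338 CPM in HSD52_OE libraries and 399, 428 and 497 CPM in control libraries, without overlap. The means were 327 ± 10.45 CPM in HSD52_OE and 441 ± 50.6 CPM in control (SD, n = 3 each). S100B differed by -0.43 ± 0.10 on the log2 scale (edgeR quasi-likelihood Benjamini-Hochberg adjusted p = 0.00156), a fold change of 0.741 with a 95% interval of 0.643 to 0.853. S100B passed under all 14 alternatives, with log2 fold changes of -0.52 to -0.31.

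TUBB3 (ENSG00000258947, chr16:89921392-89938761, plus strand) showed the largest fold change of the 7 tested markers. It had 8.02, 7.75 and 5.84 CPM in HSD52_OE libraries and 3.21, 5.29 and 3.83 CPM in control libraries. The groups did not overlap, though HSD52_OE replicate 3 and control replicate 2 lay close. The means were 7.20 ± 1.19 CPM in HSD52_OE and 4.11 ± 1.07 CPM in control (SD, n = 3 each). TUBB3 differed by 0.81 ± 0.20 on the log2 scale (edgeR quasi-likelihood Benjamini-Hochberg adjusted p = 0.00343), a fold change of 1.75 with a 95% interval of 1.30 to 2.35. TUBB3 passed under all 14 alternatives, with log2 fold changes of 0.64 to 1.02. Its exons share 1584 bases, 35.8% of their length, with the gene AC092143.1 on the same strand, which had 2, 4 and 0 counts in HSD52_OE libraries and 1, 0 and 2 in control libraries. How reads on shared bases were assigned is not given in the sources used here, so the level of TUBB3 is uncertain.

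GFAP (ENSG00000131095, chr17:44903161-44916937, minus strand) was lower than any other tested marker per base of the union of its annotated exons. By CPM TUBB3 was lower, with a mean over all libraries of 5.66 CPM against 6.06 CPM for GFAP. GFAP had 7.75, 8.06 and 6.04 CPM in HSD52_OE libraries and 3.15, 5.52 and 5.83 CPM in control libraries. The groups did not overlap, but HSD52_OE replicate 3 lay just above control replicate 3. The means were 7.29 ± 1.09 CPM in HSD52_OE and 4.83 ± 1.46 CPM in control (SD, n = 3 each), a fold change of 1.50 with a 95% interval of 1.11 to 2.04 (edgeR quasi-likelihood Benjamini-Hochberg adjusted p = 0.0277). The edgeR adjusted p was 0.0820 without HSD52_OE replicate 1, 0.101 without HSD52_OE replicate 2 and 0.135 without control replicate 1, and 14 alternatives gave 0.00486 to 0.135. Without control replicate 1 the log2 fold change was 0.34 against 0.59 with all libraries. Both GFAP and TUBB3 lie in the range under 10 CPM where 30.1% of protein-coding genes rose, and the part of the higher number of detected genes in their rise was not tested. GFAP shares 2230 exon bases, 18.4% of its length, with CCDC103 and with FAM187A on the opposite strand, both listed at 0 counts.

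OLIG2 (ENSG00000205927, chr21:33025845-33029196, plus strand) had 20.4, 18.7 and 16.7 CPM in HSD52_OE libraries and 15.5, 18.1 and 19.5 CPM in control libraries, which overlapped widely. The means were 18.6 ± 1.87 CPM in HSD52_OE and 17.7 ± 2.03 CPM in control (SD, n = 3 each), with a log2 fold change of 0.069 ± 0.12 (edgeR quasi-likelihood Benjamini-Hochberg adjusted p = 0.655). The 95% interval of the fold change was 0.879 to 1.25, so a change of 1.5-fold in either direction lies outside it.

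**Figure D2:**
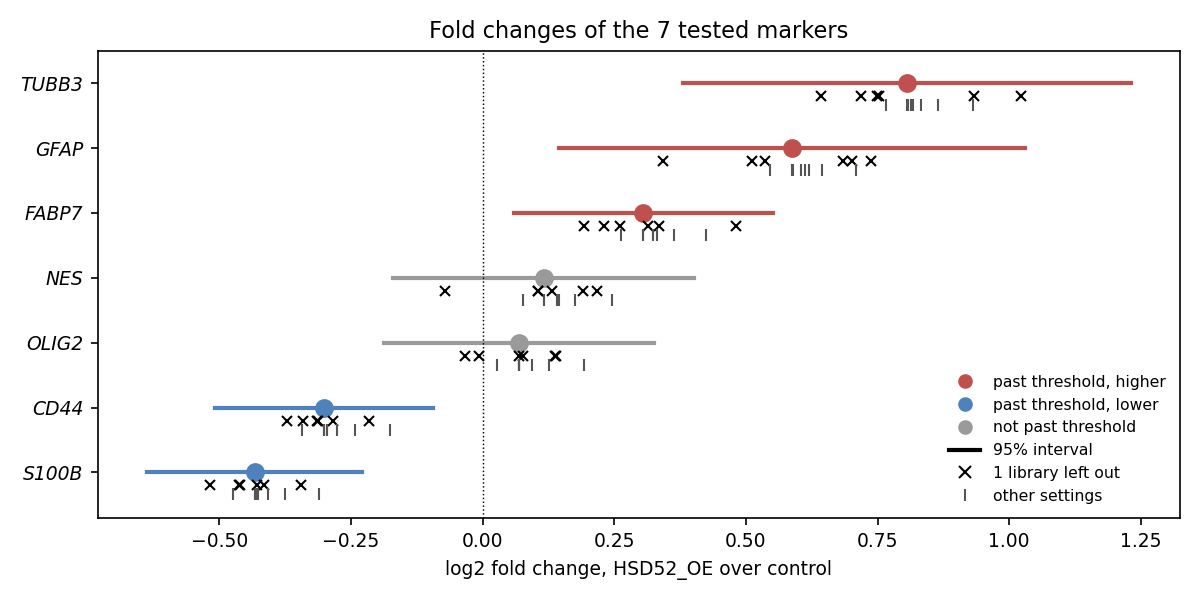
Log2 fold change (HSD52_OE over control) of the 7 tested markers with 95% intervals from the edgeR fit, and below each the values with 1 library left out (crosses) and under the other settings (ticks). TUBB3, GFAP and FABP7 stay right of 0 and CD44 and S100B left of 0 under every setting drawn, while NES and OLIG2 cross it.

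Per length the order differed from that by counts. RPKM, the scaled CPM divided by the gene length of the table in kilobases, was highest for S100B, with 226 ± 7.22 in HSD52_OE and 305 ± 34.9 in control (SD, n = 3 each). NES followed with 136 ± 2.12 RPKM in HSD52_OE and 126 ± 29.2 RPKM in control. Ranked on mean RPKM over the 16322 tested genes, S100B stood at 114, NES at 284, FABP7 at 954, CD44 at 1116, OLIG2 at 7195, TUBB3 at 11969 and GFAP at 14134. The table's length is the union of all annotated exons, 12110 bases for GFAP with 38 annotated transcripts, so the per-length level of such genes reads low. OLIG2 had 5.55 ± 0.558 RPKM in HSD52_OE and 5.29 ± 0.606 RPKM in control, and TUBB3 had 1.63 ± 0.268 RPKM in HSD52_OE and 0.928 ± 0.242 RPKM in control. GFAP had 0.602 ± 0.0898 RPKM in HSD52_OE and 0.399 ± 0.121 RPKM in control (SD, n = 3 each).

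FABP7 and CD44 lay close to each other per length. FABP7 had 51.2 ± 2.65 RPKM and CD44 36.6 ± 1.01 RPKM in HSD52_OE cells, whereas in control cells FABP7 had 41.4 ± 8.63 RPKM and CD44 45.1 ± 5.42 RPKM (SD, n = 3 each), a gap within the spread of the control libraries. The ratio of FABP7 to CD44 per length, which no scaling between libraries can alter, was 1.32, 1.36 and 1.52 in HSD52_OE libraries and 0.741, 0.855 and 1.19 in control libraries. FABP7 over S100B gave 0.223, 0.226 and 0.231 in HSD52_OE libraries and 0.138, 0.119 and 0.149 in control libraries. Both ratios pair a marker called higher with a marker called lower and were chosen after the values were seen, so they restate those calls and carry no test.

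The coefficient of variation between libraries, the SD over the mean, was smaller in HSD52_OE than in control for 7 of the 7 tested markers. It was so for 76.2% of all genes tested. For NES the coefficient of variation was 1.56% in HSD52_OE and 23.2% in control, for CD44 it was 2.76% in HSD52_OE and 12.01% in control, and for FABP7 5.18% in HSD52_OE and 20.8% in control. PROM1, at 1 to 4 counts, had the opposite order, with 56.6% in HSD52_OE and 2.52% in control. Of the 7 tested markers 4 did not overlap between groups, where 58.9% of all genes tested did not.

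Genes related to the markers, in 12 lists, moved in both directions, and the counts below stand against 21.4% of tested protein-coding genes higher and 30.1% lower. Values are means ± SD of 3 libraries each. Of 24 further stem and progenitor genes, 19 were tested, 7 rose and 9 fell, the median (log2 fold change) being -0.068 against -0.056 for all protein-coding genes tested. ALDH1A3, the retinaldehyde dehydrogenase used to mark mesenchymal stem-like cells, fell to 149.6 ± 5.71 CPM in HSD52_OE, against 320.3 ± 32.9 CPM in control. SALL2, a zinc-finger transcription factor, averaged 7.77 ± 0.161 CPM in HSD52_OE and 14.4 ± 2.29 CPM in control. CD9, a tetraspanin of the cell surface, rose to 73.7 ± 2.30 CPM in HSD52_OE, against 38.8 ± 6.78 CPM in control. SOX2, the core factor of neural stem cells, had a log2 fold change of 0.34 (edgeR quasi-likelihood Benjamini-Hochberg adjusted p = 0.00263).

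Among the genes of the mesenchymal-like state, to which CD44 and CHI3L1 belong, 26 of 27 were tested, 7 rose and 13 fell (median on the log2 scale -0.24). The list held strong changes of both signs. CEBPB, a master regulator of that state, fell to 97.9 ± 1.94 CPM in HSD52_OE, against 356 ± 11.2 CPM in control, and BCL3, an IkB-family co-regulator, averaged 31.3 ± 2.86 CPM in HSD52_OE and 125 ± 7.70 CPM in control. SPP1, the secreted CD44 ligand osteopontin, rose to 121 ± 5.71 CPM in HSD52_OE, against 39.0 ± 8.03 CPM in control.

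Of the hyaluronan and CD44 partner genes 22 were tested, 8 rose and 5 fell (median on the log2 scale 0.20). Without control replicate 3 the counts were 6 higher and 8 lower, and with no low-count filter 6 and 6, so the balance of the list depends on these choices. Besides SPP1, HMMR, a hyaluronan-binding spindle protein gene, had 166 ± 3.70 CPM in HSD52_OE and 74.7 ± 6.73 CPM in control. HYAL3, of the hyaluronidase family, fell to 7.39 ± 0.726 CPM in HSD52_OE, against 14.5 ± 1.44 CPM in control. Among relatives and receptors of CHI3L1, 6 of 9 were tested, 1 rose and 1 fell. The lower count was 0 without HSD52_OE replicate 2 or by library totals alone, and 2 without control replicate 3. LGALS3, the galectin-3 gene, had 64.9 ± 1.70 CPM in HSD52_OE and 34.03 ± 0.399 CPM in control, and CHID1 fell to 103 ± 1.17 CPM in HSD52_OE, against 125 ± 7.26 CPM in control.

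The lineage lists held more genes lower than higher, except that library totals alone gave 4 neuronal markers higher and 3 lower. Without HSD52_OE replicate 3 the higher count was 1 for the astrocyte and 1 for the oligodendrocyte list, and without control replicate 3 it was 1 for the oligodendrocyte list. Of 22 astrocyte markers 14 were tested, 3 rose and 5 fell (median on the log2 scale -0.40), while GFAP rose. Of tested protein-coding genes 21.4% were higher and 30.1% lower, so no direction of this list is read from its counts. ALDOC, the brain aldolase, fell to 15.5 ± 0.957 CPM in HSD52_OE, against 49.8 ± 2.38 CPM in control, and GLUL, glutamine synthetase, averaged 60.3 ± 2.81 CPM in HSD52_OE and 97.1 ± 3.07 CPM in control. SOX9, the gliogenic transcription factor, was near the limit of counting, with a mean of 0.0879 ± 0.0799 CPM in HSD52_OE and 1.10 ± 0.678 CPM in control.

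Of 21 oligodendrocyte lineage markers, 13 were tested, 3 rose and 7 fell (median on the log2 scale -0.48). SOX10, the transcription factor of this lineage and of neural crest glia, was far above OLIG2 in counts. It fell to 949 ± 40.5 CPM in HSD52_OE, against 1578 ± 135 CPM in control. CSPG4, the NG2 proteoglycan of precursors, had 387 ± 18.1 CPM in HSD52_OE and 723 ± 177 CPM in control, and NKX2-2, a homeodomain factor, 8.62 ± 0.328 CPM in HSD52_OE and 17.6 ± 1.58 CPM in control. OLIG1, which lies 44.3 kb from OLIG2, rose by a log2 fold change of 0.63 (edgeR quasi-likelihood Benjamini-Hochberg adjusted p = 0.0195).

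Of 22 neuronal markers 13 were tested, 4 rose and 5 fell (median on the log2 scale -0.18). As TUBB3 did, NEFL, the light neurofilament gene, and GAP43, of growth cones, rose at a low level. NEFL had 6.33 ± 0.949 CPM in HSD52_OE and 1.12 ± 0.355 CPM in control, and GAP43 had 5.93 ± 0.958 CPM in HSD52_OE and 1.65 ± 0.156 CPM in control. SNAP25, of the synaptic vesicle fusion machinery, fell to 6.20 ± 0.385 CPM in HSD52_OE, against 15.3 ± 2.00 CPM in control.

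**Figure D3:**
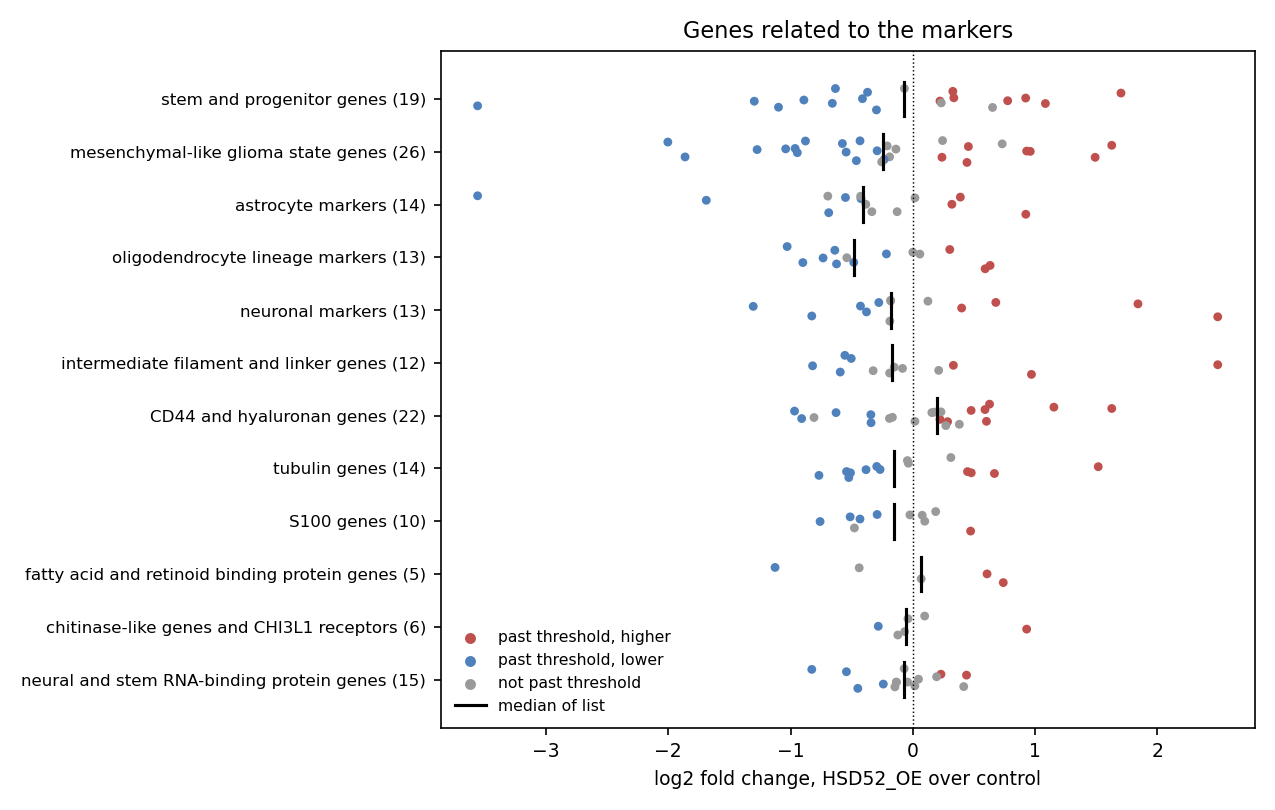
Log2 fold change (HSD52_OE over control) of each tested gene in 12 lists related to the markers, with the number tested in brackets and the list median as a line. Each list holds genes past the threshold on both sides of 0, and the medians lie between -0.48 and 0.20.

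Family members of the markers did not move as a block. Of 14 tested tubulin genes 4 rose and 7 fell, and TUBB2A and TUBB2B, near-identical neural beta-tubulins that may share reads, had 45.3 ± 2.48 and 50.1 ± 1.30 CPM in HSD52_OE, against 77.1 ± 6.42 and 71.9 ± 5.57 CPM in control. TUBG1, the gamma-tubulin of centrosomes, fell to 89.9 ± 1.97 CPM in HSD52_OE, against 131 ± 10.2 CPM in control. Of 10 tested S100 genes 1 rose and 4 fell, with 0 higher without HSD52_OE replicate 3 or control replicate 1, and 2 without control replicate 2. S100A11, S100A4 and S100A3 had log2 fold changes of -0.43, -0.51 and -0.76, beside -0.43 for S100B.

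Of 13 genes of the fatty acid and retinoid binding family besides FABP7, 5 were tested, 2 rose and 1 fell. PMP2, the myelin member of that family, rose to 46.6 ± 4.20 CPM in HSD52_OE, against 27.9 ± 7.63 CPM in control. CRABP2, a retinoic acid carrier, fell, with 6.18 ± 1.24 CPM in HSD52_OE and 13.5 ± 2.89 CPM in control. Among 12 tested intermediate filament genes and linkers, where NES and GFAP belong, 3 rose and 4 fell, with 7 lower without control replicate 3 or with no low-count filter. KRT8 had 50.3 ± 1.56 CPM in HSD52_OE and 25.7 ± 2.33 CPM in control, and LMNB2, a nuclear lamin, 335 ± 16.3 CPM in HSD52_OE and 592 ± 119 CPM in control.

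Of 15 tested RNA-binding protein genes of neural or stem cells, the family list of MSI1, 2 rose and 4 fell. Library totals alone gave 4 higher and 3 lower, and the higher count was 1 without HSD52_OE replicate 1, 2 or 3 or control replicate 1 or 2. PTBP1, a splicing repressor of neuronal exons, fell to 417 ± 5.03 CPM in HSD52_OE, against 569.5 ± 52.8 CPM in control. ELAVL1, the ubiquitous HuR gene, had 107 ± 4.67 CPM in HSD52_OE and 156 ± 0.846 CPM in control, and its neuronal relative ELAVL2 3.96 ± 0.131 CPM in HSD52_OE and 7.03 ± 0.701 CPM in control. MSI2, the paralogue of MSI1, was counted well, at 96.3 ± 5.03 CPM in HSD52_OE and 84.1 ± 5.25 CPM in control, with an edgeR quasi-likelihood Benjamini-Hochberg adjusted p = 0.0629.

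Position along the chromosome was examined for each marker, taking tested genes whose lower coordinate in the table (hg38) lay near that of the marker. Around FABP7 on chromosome 6 the neighbours rose with it. Within 500 kb 5 genes were tested, 4 higher and 0 lower, and within 2 Mb 7 genes, 6 higher and 0 lower. Over all genes tested 25% were higher and 25.6% lower. SERINC1 had 125 ± 1.99 CPM in HSD52_OE and 75.2 ± 13.5 CPM in control. HSF2, a heat shock transcription factor gene, had 23.3 ± 0.435 CPM in HSD52_OE and 13.1 ± 1.73 CPM in control, and SMPDL3A, the nearest at 9.57 kb, 12.4 ± 1.45 CPM in HSD52_OE and 6.81 ± 2.00 CPM in control. Z99129.4, TBC1D32 and GJA1 rose as well, with log2 fold changes of 0.98, 0.85 and 0.39, and PKIB, at about 0.5 CPM in both groups, did not pass.

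The surroundings of the other called markers were mixed. Within 500 kb of CD44, of 3 tested genes 0 rose and 2 fell, APIP and FJX1 with log2 fold changes of -0.27 and -0.77, but within 2 Mb 8 of 23 rose and 6 fell. Around S100B 3 of 11 rose and 4 fell within 500 kb, around GFAP 3 of 19 rose and 7 fell, and around TUBB3 7 of 23 rose and 5 fell. MC1R, just before TUBB3, had a log2 fold change of 0.58 (edgeR quasi-likelihood Benjamini-Hochberg adjusted p = 0.00299). For the markers without a call, 6 of 43 genes within 2 Mb of CHI3L1 rose and 23 fell. Around NES 15 of 78 rose and 31 fell, and around MSI1 8 of 52 rose and 18 fell. Around PROM1 4 of 18 rose and 2 fell, and around OLIG2 10 of 38 rose and 10 fell. Uneven surroundings were thus not limited to FABP7.

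**Figure D4:**
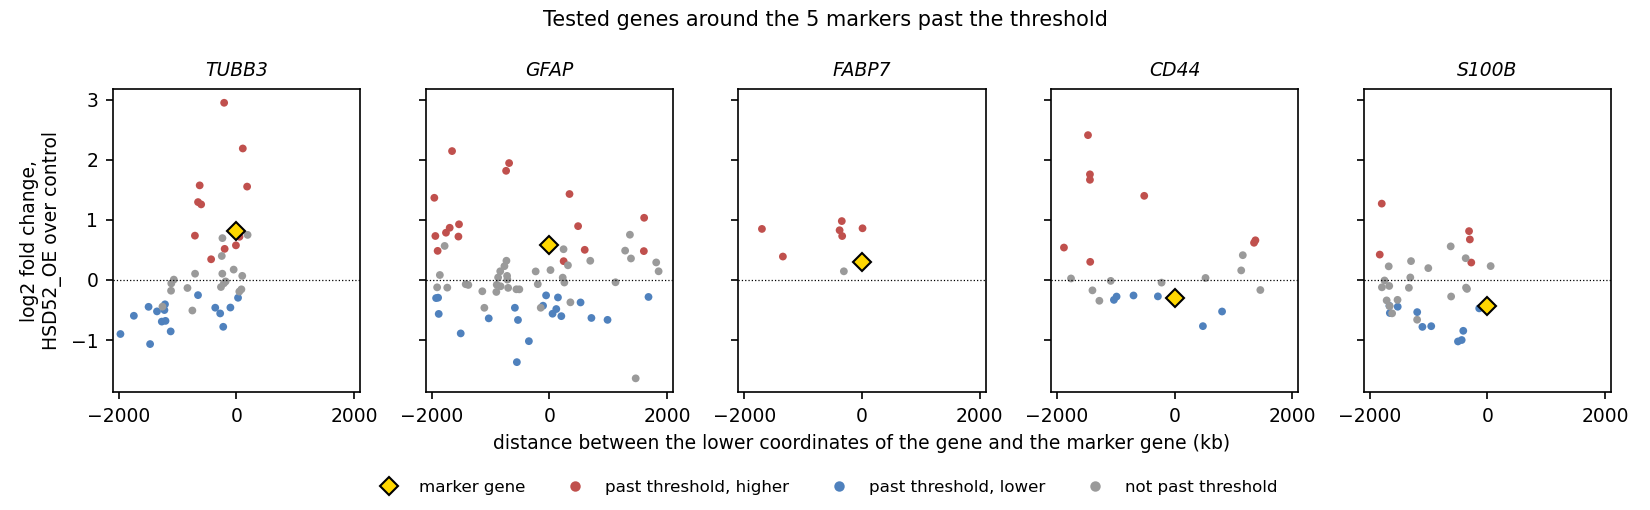
Log2 fold change (HSD52_OE over control) of tested genes within 2 Mb of the 5 markers past the threshold, by the distance in kb between the lower coordinates of gene and marker. Around FABP7 all 7 genes lie above 0 and 6 of them passed, and around the other markers genes past the threshold lie on both sides.

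The genes whose profile over the 6 libraries came nearest to a marker were found among 10862 other protein-coding genes with a mean of at least 5 CPM. For TUBB3 these were MRNIP, CCNL2 and CREBZF, with a root mean square difference of 0.0865, 0.0989 and 0.103 in centred log2(CPM + 0.1). For S100B they were MXRA7, ZFAND1 and FHL1, with 0.0298, 0.0302 and 0.0339.

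Markers of other cell types were summed as a check of the cultures. The 12 fibroblast markers summed to 58.7 to 60.6 CPM in HSD52_OE libraries and 119 to 214 CPM in control libraries, with 2 of 9 tested genes higher and 7 lower. The collagen gene COL1A1 averaged 5.44 ± 0.170 CPM in HSD52_OE and 72.4 ± 35.7 CPM in control, LUM and THY1 fell too, and FBLN1 rose. The 11 endothelial markers summed to 32.98 to 35.4 CPM in HSD52_OE and 46.3 to 50.2 CPM in control, with 2 of 5 tested higher, TIE1 among them (1 under 8 of the 14 alternatives), and 2 lower, EGFL7 and PECAM1. The 11 epithelial markers summed to 187 to 198 CPM in HSD52_OE and 135 to 157 CPM in control, mostly KRT8 and KRT18, with 3 of 5 tested higher, CLDN4 among them, 1 lower, and CDH1 and KRT5 at 0. Microglia and macrophage markers summed to 1.72 to 3.20 CPM in HSD52_OE and 1.28 to 2.79 CPM in control, with AIF1, C1QA, C1QB and C1QC at 0, and of 2 tested 0 passed. Lymphocyte markers summed to 1.42 to 1.94 CPM in HSD52_OE and 0.911 to 1.44 CPM in control, with CD2 and CD3E among the genes at 0, and the 1 tested did not pass. The part of the fibroblast, endothelial and epithelial differences in the marker results was not tested.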

How the data were processed

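RNA-seq counts of 6 LN229 libraries, 3 HSD52_OE and 3 control, were analysed. The deposited values were raw counts per gene without normalization. Per the submitters' processing notes, the tools were CASAVA, HISAT2 2.0.5 and featureCounts 1.5.0-p3 with the hg38 build. How strand and multi-gene reads were handled is not given in the sources used here. Identifiers and coordinates of all 58735 genes in the deposited table were found unchanged in GENCODE release 29, whose exons gave the overlaps.

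Genes passing filterByExpr were scaled by TMM and tested with edgeR 4.0.16 (R 4.3.3, robust quasi-likelihood, 2-sided, group as the sole term). P-values were adjusted by Benjamini-Hochberg over the whole table of tested genes, and 0.05 was the threshold. CPM values are scaled by TMM, except the limit given for CHI3L1, and RPKM values divide the scaled CPM by the deposited gene length. Standard errors and intervals come from the same fit. Low counts were summed by group, scaled by library totals and compared by exact binomial intervals, and single library measures by exact permutation tests.

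The members and lists were chosen with earlier results of these data known. Named were the 10 markers, the 3 genes with the smallest p past the threshold of each list, the nearest profiles, and genes overlapping a marker, except items not reported here. SOX2, OLIG1, MSI2 and the chromosomal neighbours were named after their values were seen, as was the 2 Mb window. SOD2 stands on 2 identifiers, of which the row with more counts was used.

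Alternatives were RLE factors, library totals, no filter beyond 1 count, 1 CPM or more in 3 libraries, protein-coding genes alone, a replicate block, DESeq2 1.42.0, voom in limma 3.58.1, and each library left out.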

Additional observations from a re-analysis of the deposited data

How the results depend on the processing

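Of 98 recomputed fold changes of the 7 tested markers, 83 kept direction and side of the threshold, 12 lost the call and 3 changed sign. The losses were those of CD44, FABP7 and GFAP given with each gene, and all but that of CD44 under library totals came with 1 library fewer. With a library left out the log2 fold change of NES ran from -0.071 (without control replicate 3) to 0.22, and that of OLIG2 from -0.032 (without control replicate 1) to 0.14, with -0.0075 without HSD52_OE replicate 1. The count of markers higher ran from 1 to 3 and that of markers lower from 1 to 2 with a library left out, and 1 marker was lower under library totals alone. Over all genes the calls with a library left out ran from 3373 to 4303 higher and from 3313 to 4529 lower. The labels do not say whether same-numbered libraries pair. Correlations between their deviations from the group means were small, 0.0307 to 0.0383, though each library correlated best with its own number (-0.0218 to -0.0127 otherwise). The replicate block gave 4210 higher and 4226 lower genes and left 3 markers higher and 2 lower. Its edgeR quasi-likelihood Benjamini-Hochberg adjusted p was 0.00327 for FABP7, 0.00486 for GFAP and 0.000166 for TUBB3. Without the block these were 0.0381, 0.0277 and 0.00343. For S100B it was 0.000351 against 0.00156, and for CD44 0.0150 against 0.0171. Of 571 fold changes of 41 named list genes, 568 kept their call and 3 lost it. Of 476 recomputed list counts 38 moved by over 1.5 times, in small counts. Depth limits PROM1, MSI1 and CHI3L1, and an absence of change is not shown for them. The counting interval of the ratio was 0.639 to 15.6 for PROM1, so even a large change is not excluded. For MSI1 it was 0.436 to 1.82, and CHI3L1, without counts, gives no ratio.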
